A study of Bos taurus with 23 samples.

Results

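Transcripts of 4 genes linked to microtubules were followed in bovine peripheral white blood cells (PWBC), out of 24616 Ensembl genes counted. They are TTLL1 (ENSBTAG00000012030), MNS1 (ENSBTAG00000000271), TPPP (ENSBTAG00000047116) and SAXO2 (ENSBTAG00000003414). They were taken by identifier, because each had been called differentially expressed between pregnancy outcomes and each encodes a protein of microtubules or their axonemes. TTLL1, MNS1 and TPPP came from the call in station A and SAXO2 from the call in station B, so their values in those contrasts are a description. The study asked whether transcripts of PWBC at the time of artificial insemination (AI) differ between heifers with different pregnancy outcomes. All 23 heifers were pubertal Angus-Simmental crosses in their first breeding season, synchronized for estrus, inseminated at a fixed time and bled right after AI, with 1 library per heifer. At station A, 6 heifers conceived to AI (AI-pregnant) and 5 conceived later to natural breeding (NB-pregnant). At station B, 6 heifers were AI-pregnant and 6 were without a conceptus at the pregnancy check (non-pregnant). The later outcome is thus NB pregnancy at one station and no pregnancy at the other, and the breeding season was longer at station A.

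Microtubules are polymers of tubulin that carry cargo, shape cells and form the core, or axoneme, of cilia and flagella. Circulating leukocytes have no motile cilium, and their microtubules spread from the centrosome and serve migration and secretion. TTLL1 is the catalytic subunit of a polyglutamylase that adds glutamate chains to tubulin. TPPP, the tubulin polymerization promoting protein, drives assembly and bundling of microtubules and is best known from oligodendrocytes. MNS1, a meiosis-specific nuclear structural protein, also sits inside axonemal microtubules, and SAXO2 belongs to the family that stabilizes axonemal microtubules.

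TTLL1 was the only gene of the 4 that the study also assayed by quantitative PCR, and the oligonucleotide pair is shown to identify the transcript measured. Each oligonucleotide has 20 bases, and no letters are in capitals because no part is singled out.
TTLL1 oligonucleotide 1: agaaggacgaaagcgggaag
TTLL1 oligonucleotide 2: aacaggttgtagtcggcagg
The PCR values were not used here. In the ARS-UCD2.0 annotation of RefSeq, which is not the build of the counts (UMD3.1), MNS1 overlaps the protein-coding gene TEX9, TPPP overlaps a long non-coding RNA gene (LOC132343262) and lies beside CEP72, SAXO2 lies between EFL1 and ADAMTSL3, and TTLL1 overlaps no gene. The strand setting of the read counting is not given in the sources used here, so reads of MNS1 and TPPP are uncertain where genes overlap.

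Libraries held 4826003 to 20434401 counted read pairs, and CPM below are the pairs of a gene scaled to 1000000 counted pairs of its library. Libraries of both stations also differed within the outcome groups, and whether these differences go with the outcome was not tested. At station A the share of all counts held by the 100 most abundant genes fell into 2 ranges, 11.8% to 17.2% in 6 libraries (even libraries, 4 AI-pregnant and 2 NB-pregnant) and 23.8% to 28.7% in 5 (top-heavy libraries, AI-pregnant heifers 4 and 5 and NB-pregnant heifers 1, 4 and 5). At station B, 3 libraries stood apart (AI-pregnant heifer 3 and non-pregnant heifers 1 and 4). Of 1705 other genes retained only at station A, 1454 to 1601 exceeded 1 CPM in these 3 libraries, against 17 to 147 in the other 9 (alike libraries). Results are therefore also given within these classes of libraries, which were defined from the counts and not from the labels.

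TTLL1 was the most abundant of the 4 transcripts per length. In FPKM, computed from the counts with the gene lengths of the deposited tables, TTLL1 had a mean level of 62.4 ± 39.7 (SD, n = 11) at station A and 14.0 ± 9.17 (SD, n = 12) at station B. TPPP followed at station A with 4.74 ± 4.35, then MNS1 with 1.67 ± 0.926 and SAXO2 with 0.641 ± 0.235. The order per heifer was not fixed, since MNS1 was above TPPP in 4 of 11 heifers of station A. At station B, MNS1 had 3.87 ± 1.61, TPPP 2.10 ± 4.32 and SAXO2 1.13 ± 0.455 FPKM (SD, n = 12), and MNS1 was above TPPP in 9 of 12 heifers. TTLL1 was highest of the 4 in every heifer of station A but in 8 of 12 at station B, where MNS1 was highest in 3 heifers and TPPP in 1. Among retained genes of station A, those with over 1 CPM in 6 or more libraries, 84.2% had a lower mean FPKM than TTLL1, against 43.4% at station B. SAXO2 was near the bottom, with 2.70% of retained genes below it at station A, where it had over 1 CPM in 5 of 11 libraries and so missed the filter by 1 library, as did 1.08% of all 24616 genes. TPPP passed 1 CPM in 3 of 12 libraries at station B and missed the filter there. A low level in whole PWBC can mean fewer cells of a type or less RNA per cell, which cannot be told apart in these libraries.

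**Figure D1:**
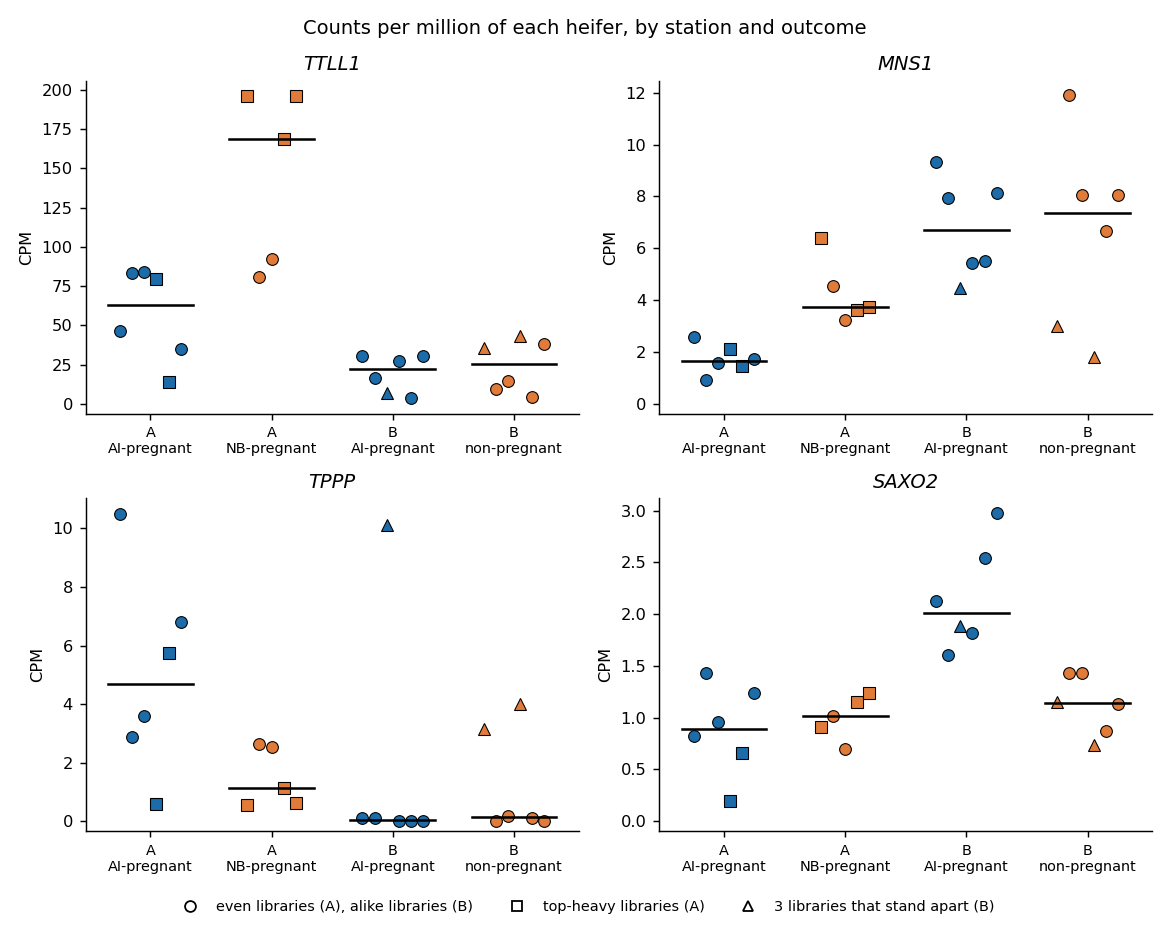
CPM of each heifer for the 4 genes, by station and outcome, with 1 panel per gene, a line at the group median and the marker shape giving the class of library. MNS1 of the 2 groups of station A and SAXO2 of the 2 groups of station B did not overlap, and TPPP at station B was above 1 CPM only in the 3 libraries that stood apart.

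TTLL1 transcripts were more abundant in NB-pregnant heifers of station A. NB-pregnant heifers 1 to 5 had 196, 80.8, 92.3, 169 and 196 CPM, and AI-pregnant heifers had 14.1 at the lowest, 63.2 at the median and 83.9 CPM at the highest. The groups overlapped in 1 NB-pregnant heifer, whose 80.8 CPM was below the highest AI-pregnant values. The log2 fold change of NB-pregnant over AI-pregnant heifers was 1.36 (standard error 0.44, edgeR), with means of 147 ± 56.1 (SD, n = 5) and 57.1 ± 29.6 CPM (SD, n = 6). In the even libraries the difference was 0.48 (standard error 0.38), where 2 NB-pregnant heifers had 80.8 and 92.3 CPM and 4 AI-pregnant heifers 34.8 to 83.9. In the top-heavy libraries it was 1.99 (standard error 0.74), where 3 NB-pregnant heifers had 169 to 196 CPM and the 2 AI-pregnant heifers 14.1 and 79.7. Whether the outcome difference itself differs between the classes was not tested.

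At station B, which had no part in the choice of TTLL1, the outcome groups could not be separated. AI-pregnant heifers ranged from 3.64 to 30.6 CPM (median 22) and non-pregnant heifers from 4.15 to 43.4 CPM (median 25.2). The groups overlapped from 4.15 to 30.6 CPM. Non-pregnant heifers 1, 4 and 6 had 35.4, 43.4 and 38.2 CPM, above every AI-pregnant heifer. AI-pregnant heifer 5, with 3.64 CPM, was below every non-pregnant heifer. Non-pregnant over AI-pregnant heifers gave a log2 fold change of 0.35 (standard error 0.66, edgeR likelihood ratio P = 0.597), an adjusted p of 0.873 in the quasi-likelihood test and p = 0.543 in the exact permutation test of CPM (two-sided, n = 6 and 6). Without the 3 libraries that stood apart the sign turned, to -0.39 (standard error 0.62). The spread between heifers of station B was 8.72 times the counting error.

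MNS1 was higher in every NB-pregnant heifer than in any AI-pregnant heifer of station A. NB-pregnant heifers 1 to 5 had 6.38, 4.54, 3.24, 3.64 and 3.73 CPM, and AI-pregnant heifers had 0.927 at the lowest, 1.65 at the median and 2.60 CPM at the highest. The level was low, with 9 to 65 read pairs per library. In NB-pregnant heifers MNS1 was higher by 1.28 on the log2 scale (standard error 0.36), by 1.14 (standard error 0.45) in the even and 1.35 (standard error 0.54) in the top-heavy libraries. Of the 3 genes called at station A, MNS1 had the difference that moved least between the classes of libraries.

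Station B showed no such separation of MNS1. AI-pregnant heifers had 4.48 to 9.33 CPM (median 6.72) and non-pregnant heifers 1.81 to 11.9 CPM (median 7.35), so the non-pregnant group held both the lowest and the highest heifer. The log2 fold change was -0.06 (standard error 0.47, edgeR likelihood ratio P = 0.898), the quasi-likelihood adjusted p was 0.954, and the exact permutation test gave p = 0.905 (two-sided, n = 6 and 6). MNS1 was low in the 3 libraries that stood apart, at 1.81, 3.0 and 4.48 CPM against 5.45 to 11.9 CPM in the other 9. Pooled over libraries, the 3 held 114 MNS1 pairs and the 9 held 537, a ratio of CPM of 0.349 (95% exact interval 0.283 to 0.428, counting error only). Without these 3 libraries the log2 fold change was 0.25 (standard error 0.31), again within its error.

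TPPP was lower in NB-pregnant heifers of station A. NB-pregnant heifers 1 to 5 had 0.547, 2.63, 2.54, 1.15 and 0.622 CPM. AI-pregnant heifers 1 to 6 had 10.5, 2.87, 3.61, 0.582, 5.73 and 6.80 CPM. Heifer 4 was the only AI-pregnant heifer inside the NB-pregnant range, and its library was top-heavy. The log2 fold change was -1.70 (standard error 0.66), with -1.21 (standard error 0.60) in the even and -2.01 (standard error 0.85) in the top-heavy libraries. Of the 5 top-heavy libraries, 4 had 1.15 CPM or less, from 3 to 6 read pairs each, while the even libraries had 2.54 to 10.5 CPM. Of the 4 genes, TPPP was nearest to the nominal limit of the call in the contrast that chose it, with an edgeR P of 0.00957 against 0.01.

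At station B, TPPP was read almost only in the 3 libraries that stood apart. They had 10.1, 3.15 and 4.01 CPM, from 86, 41 and 82 read pairs, and the other 9 libraries had 1 pair or none. Over those 9 libraries 4 pairs were counted in 68961974, against 209 in 41932323 in the 3, a ratio of 85.9 (95% exact interval 33.1 to 318, counting error only). A library of the 9 with no TPPP pair allowed up to 0.331 to 0.478 CPM at a floor of 3 counts. TPPP was one of 1043 genes, of 1706 retained only at station A, that exceeded 1 CPM in exactly these 3 libraries. One of the 3 was from an AI-pregnant and 2 were from non-pregnant heifers, and the outcome difference could not be separated from 0 (log2 fold change -0.46, standard error 1.88, edgeR likelihood ratio P = 0.807 without a filter on low counts, a fit in which 0.0379% of 18470 genes met the nominal limit in both algorithms, quasi-likelihood adjusted p = 0.948, and exact permutation p = 0.933, two-sided, n = 6 and 6). AI-pregnant heifer 3 alone set the direction, since the log2 fold change without it was 4.40. In the 9 libraries both groups were at or under the floor, so no fold change is given.

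**Figure D2:**
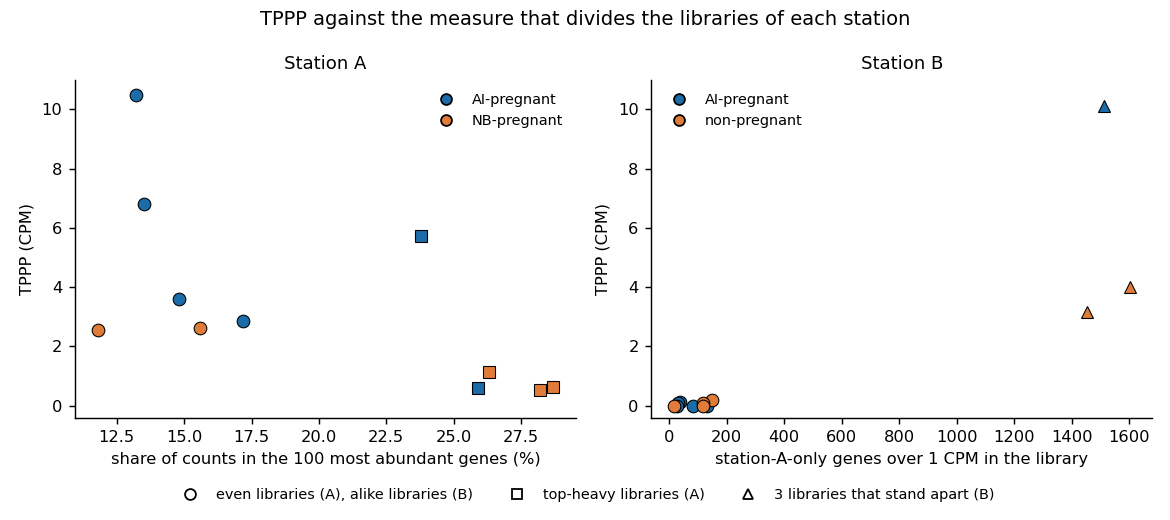
CPM of TPPP in each heifer against the share of counts held by the 100 most abundant genes (station A, percent) and against the number of the 1705 other genes retained only at station A that exceeded 1 CPM in the library (station B). At station A 4 of 5 top-heavy libraries lay at 1.15 CPM or less, and at station B the 3 libraries with 1454 or more such genes had 3.15 to 10.1 CPM while the other 9 lay at or near 0.

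Markers of other blood cells could be followed for few genes. Of the marker lists, 1 of 7 platelet genes (P2RY12), 1 of 6 erythroid genes (ALAS2) and 1 of 6 eosinophil and basophil genes (FCER1A) could be tied to an identifier, and all of them had themselves been called at one of the stations. At station B, ALAS2, which starts heme synthesis in red cell precursors, had 4.95 to 44.3 CPM in the 3 libraries that stood apart and 1.42 to 9.50 CPM in the other 9. FCER1A, a chain of the high-affinity IgE receptor, had 5.61 to 11 CPM against 7.82 to 21.7 CPM, and P2RY12, a platelet receptor for ADP, had 1.66 to 4.24 against 2.57 to 18.9 CPM. At station A, FCER1A had 3.11 to 13.8 CPM in the top-heavy and 10 to 30.9 CPM in the even libraries, and ALAS2 and P2RY12 overlapped widely (17.9 to 142 against 14.7 to 102 CPM, and 2.95 to 7.87 against 1.58 to 10 CPM). Between the outcome groups of station A, where FCER1A and P2RY12 had themselves been called, FCER1A had 3.11 to 10.8 CPM (median 8.43) in NB-pregnant and 8.34 to 30.9 CPM (median 15.9) in AI-pregnant heifers. P2RY12 had 3.64 to 10 CPM (median 5.71) against 1.58 to 4.89 CPM (median 3.01), and ALAS2 17.9 to 142 CPM (median 81.8) against 14.7 to 102 CPM (median 63.8). Their part in the differences of TTLL1, MNS1 and TPPP was not tested. No gene of the T cell, B cell, NK cell, monocyte, neutrophil or ciliated epithelium lists could be tied to an identifier, so the label PWBC was not checked against leukocyte markers here.

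SAXO2 was lower in every non-pregnant heifer than in any AI-pregnant heifer of station B. AI-pregnant heifers had 1.61 at the lowest, 2.01 at the median and 2.98 CPM at the highest, and non-pregnant heifers had 0.734, 1.14 and 1.43 CPM. These values rested on 12 to 23 and on 8 to 15 read pairs per library, and within the groups the spread was 0.993 and 0.780 times the counting error. The log2 fold change of non-pregnant over AI-pregnant heifers was -0.98 (standard error 0.37), and -0.88 (standard error 0.40) without the 3 libraries that stood apart, which had 1.89, 1.15 and 0.734 CPM.

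At station A, which had no part in the choice of SAXO2, the outcome groups overlapped. AI-pregnant heifers 1 to 6 had 0.825, 1.43, 0.954, 0.194, 0.655 and 1.24 CPM. NB-pregnant heifers 1 to 5 had 0.911, 1.02, 0.698, 1.15 and 1.24 CPM. The NB-pregnant values lay inside the AI-pregnant range. The log2 fold change was 0.02 (standard error 0.45, edgeR likelihood ratio P = 0.969 without a filter on low counts, a fit in which 0.212% of 18410 genes met the nominal limit in both algorithms), the quasi-likelihood adjusted p was 0.9996, and the exact permutation test gave p = 0.602 (two-sided, n = 6 and 5). The sign differed between classes, with -0.45 (standard error 0.51) in the even and 1.27 (standard error 0.78) in the top-heavy libraries, neither beyond the nominal limit. SAXO2 had 1 to 18 read pairs per library at station A and a spread of 0.976 times the counting error over the 11 heifers. The smallest difference detectable at this depth was not computed.

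**Figure D3:**
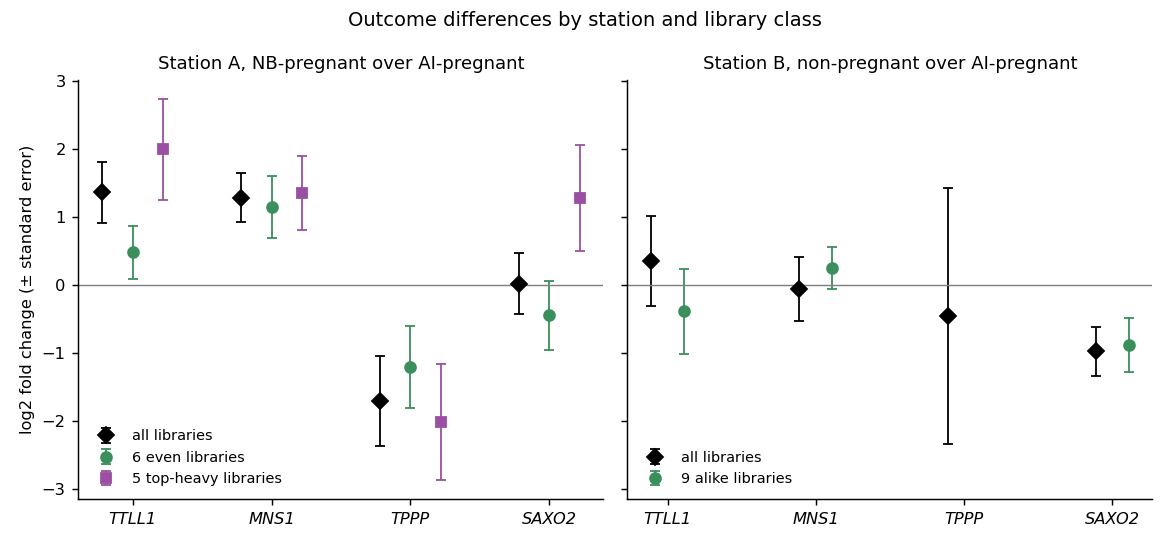
Log2 fold change (vertical axis, with standard error) of NB-pregnant over AI-pregnant heifers at station A and of non-pregnant over AI-pregnant heifers at station B, in all libraries and in the classes of libraries. TTLL1 at station A went from 0.48 in the even to 1.99 in the top-heavy libraries, MNS1 stayed between 1.14 and 1.35, and TPPP at station B has no value in the 9 alike libraries.

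The 3 genes of station A were among 18 of 12128 genes (0.148%) with a nominal P of 0.01 or less in both algorithms, edgeR and DESeq2, and SAXO2 was among 6 of 10832 genes (0.0554%) at station B. These calls chose the genes and support nothing about them. None of the 4 genes met the same limit at the other station. With the quasi-likelihood test of edgeR, adjusted by Benjamini-Hochberg over every gene of the fit, 0 genes passed 0.05 at either station. At an unadjusted p under 0.05 that test counted 101 genes at station A (0.833%) and 48 at station B (0.443%), and DESeq2 with adjusted p counted 2 and 0. In all, 4 retained genes of station A (0.0330%) were without overlap and higher in NB-pregnant heifers, MNS1 among them, against 14 lower (0.115%). At station B, 2 (0.0185%) were without overlap and lower in non-pregnant heifers, SAXO2 among them, against 1 higher (0.00923%). MNS1 and SAXO2 were chosen in these contrasts, so their lack of overlap is likewise a description and supports nothing about them. In the pathway lists, 1 of 32 tubulin modification genes, 2 of 55 axoneme and motile cilium genes, 1 of 27 microtubule dynamics genes and 0 of 18 tubulins could be tied to an identifier, and those are the 4 members themselves, so the rest of these pathways was not analysed here.

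The stations were also compared, a contrast other than the outcome contrasts that chose the genes, although the same heifers entered it. TTLL1 and MNS1 passed the filter on low counts at both stations. No p is given for any member, because values that chose the members enter the contrast. Over all heifers, with both outcome groups of a station weighing the same, TTLL1 was lower at station B by a log2 fold change of -2.15 (standard error 0.43, quasi-likelihood adjusted p = 0.000306), and MNS1 was higher by 1.26 (standard error 0.30, adjusted p = 0.00137). This contrast called 66.7% of 12807 genes, 35.2% higher and 31.5% lower at station B, so a call is what most genes had. SAXO2 passed the filter, and so could be called, only at station B, and TPPP only at station A. For this reason too their station differences are a description, 0.67 (standard error 0.26) for SAXO2 and -0.93 (standard error 0.88) for TPPP. Without AI-pregnant heifer 3 of station B the value of TPPP was -3.28.

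Among AI-pregnant heifers alone, which share their outcome, the levels moved the same way, also given without a test because these heifers entered the choice. In that contrast 59.6% of 12059 genes passed an adjusted p of 0.05, 30.8% higher and 28.9% lower at station B. TTLL1 had 57.1 ± 29.6 CPM (SD, n = 6) at station A and 19.3 ± 12 (SD, n = 6) at station B. MNS1 had 1.74 ± 0.575 and 6.81 ± 1.91 CPM, with no overlap, as 11.1% of genes were without overlap and higher at station B and 9.33% lower. SAXO2 had 0.883 ± 0.439 and 2.16 ± 0.512 CPM, also with no overlap. In the other outcome groups, TTLL1 had 147 ± 56.1 CPM in NB-pregnant heifers (SD, n = 5) and 24.2 ± 16.7 (SD, n = 6) in non-pregnant heifers, MNS1 had 4.31 ± 1.25 and 6.59 ± 3.71, and SAXO2 1.01 ± 0.213 and 1.13 ± 0.286. The station cannot be told apart from the herd or from anything else that differed between the stations. Library names run in a separate series at each station, and the labels do not say whether the libraries were prepared together.

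Whether the 4 genes moved together was examined across heifers after the mean of each outcome group was subtracted, which takes out the differences that chose them. Log2 CPM with a prior count of 2 was used in the 11 heifers of station A for 6 pairs, and in the 9 alike heifers of station B for the 3 pairs without TPPP. No pair passed Benjamini-Hochberg adjustment over the 9 pairs. TTLL1 and TPPP at station A gave the strongest relation and an inverse one, with r = -0.64 (permutation p = 0.0643, adjusted 0.579) and rho = -0.65 (permutation p = 0.0343, adjusted 0.308, n = 11). Without the 2 heifers farthest from the median of TTLL1, r was -0.76, and within the 6 even libraries it was -0.82 (exact permutation p = 0.292) and -0.12 without the 2 farthest of these. Scaling by TMM factors brought this pair past the limit, with r = -0.81 (permutation p = 0.00486, adjusted 0.0437) and rho = -0.89 (permutation p = 0.00098). The 5 top-heavy libraries were too few for a value of their own. TPPP had a median r of 0.53 with the other 12125 genes at station A, against -0.14 for TTLL1, so the level of TPPP moved with that of many genes. The 5th and 95th percentiles of r were -0.74 and 0.84 for TPPP, and -0.44 and 0.35 for TTLL1. The r of -0.64 between them lay inside the range of TPPP and outside that of TTLL1.

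The other pairs gave weaker relations, and none passed the adjustment. TTLL1 and MNS1, the 2 genes higher in NB-pregnant heifers, had r = 0.04 and rho = -0.06 at station A (permutation p = 0.922 and 0.860, n = 11) and r = 0.38 and rho = 0.22 at station B (exact permutation p = 0.343 and 0.599, n = 9). MNS1 and SAXO2, the axonemal genes, had r = -0.41 and rho = -0.35 at station A (permutation p = 0.288 and 0.305) and r = 0.33 and rho = 0.40 at station B (exact permutation p = 0.404 and 0.326). MNS1 and TPPP had r = -0.07 and rho = 0.01 at station A (permutation p = 0.844 and 0.990), and r = 0.87 in the 6 even libraries (exact permutation p = 0.0417, adjusted 0.250). TPPP and SAXO2 had r = 0.46 and rho = 0.02 at station A (permutation p = 0.251 and 0.969). TTLL1 and SAXO2 had r = 0.06 and rho = 0.38 at station A (permutation p = 0.883 and 0.292) and r = 0.06 and rho = 0.18 at station B (exact permutation p = 0.880 and 0.660). Without the 2 heifers farthest from the median of the first gene, r of TTLL1 and MNS1 at station B turned to -0.42, so that relation rested on those heifers.

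**Figure D4:**
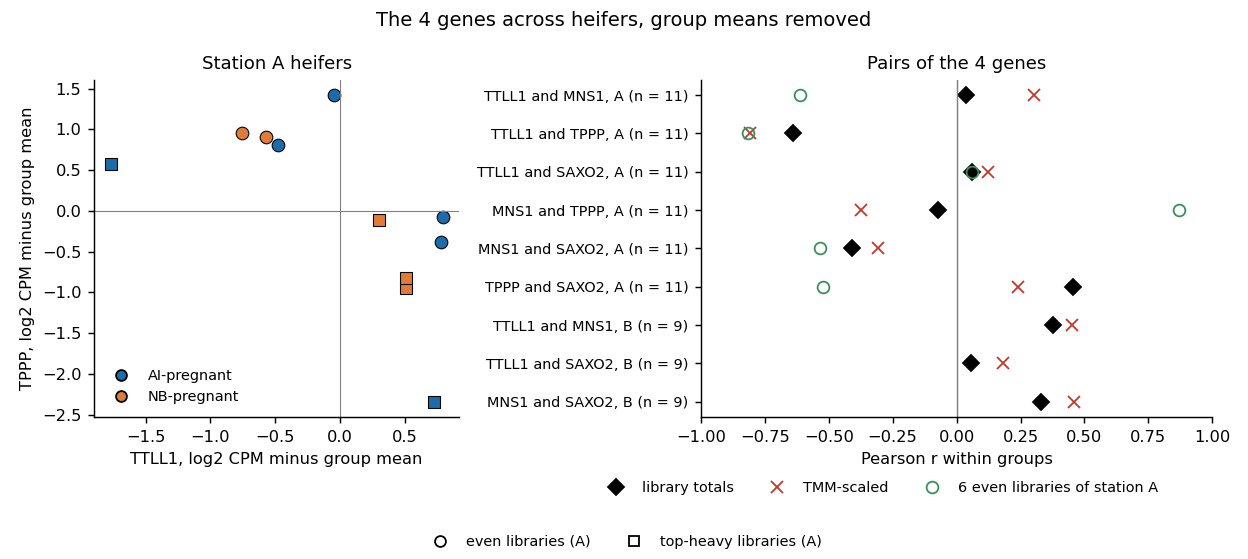
Log2 CPM of TTLL1 and TPPP in the 11 heifers of station A after subtraction of the group mean, with marker shape for the class of library, and Pearson r of the 9 pairs by scaling and class (right). TTLL1 and TPPP lie below 0 under each setting shown (-0.64, -0.81 and -0.82), MNS1 and SAXO2 of station A lie below 0 as well, and TTLL1 and MNS1 lie on both sides of 0.

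The genes whose pattern was most like each member were taken by Pearson r of the same group-centred values over the 11 heifers of station A. For TPPP this was ENSBTAG00000037581 (r = 0.98), for MNS1 ENSBTAG00000042461 (r = 0.98), for SAXO2 ENSBTAG00000021008 (r = 0.91) and for TTLL1 ENSBTAG00000025385 (r = 0.86). The genes like MNS1 and SAXO2 had low levels, 0.590 to 3.28 and 0.388 to 1.77 CPM. At station B the highest r over the 9 alike heifers was 0.92 for TTLL1, 0.97 for MNS1 and 0.98 for SAXO2. No name was tied to these identifiers, and with 12125 and 10829 genes compared over 11 and 9 heifers such values are a description.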

How the data were processed

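PWBC libraries of 23 heifers (TruSeq Stranded mRNA, paired reads) were aligned by the authors to UMD3.1. The authors removed pairs with several alignments and duplicates, and deposited unnormalized counts of read pairs per Ensembl gene from HTSeq. The aligner and the strand setting are not given in the sources used here. FPKM were made by the authors from the counts of retained genes and deposited without a log transformation. They served here only to take gene lengths.

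Counts were analysed from the deposited tables. CPM are scaled to 1000000 counts of all genes of a library. The retained genes of a station exceeded 1 CPM in at least 6 of its libraries, 12128 at station A and 10832 at station B. Depth was 4826003 to 20434401 counts per library, and floors and intervals cover counting error only. Each replicate is 1 heifer with 1 library.

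Outcomes were compared in each station apart with edgeR 4.0.16 (robust dispersion, no normalization factors, likelihood ratio test) and DESeq2 1.42.0 (Wald test), as in the study, and beside them with the quasi-likelihood test of edgeR (TMM factors, Benjamini-Hochberg adjustment over every gene of the fit). Standard errors were derived by dividing the log2 fold change by the root of the test statistic. SAXO2 at station A and TPPP at station B missed the filter and were fitted without it. Stations were compared with the quasi-likelihood test. The p-values of the members in the station comparisons are not given, because heifers that entered the choice of the members entered each of these comparisons. The contrast over all heifers was added after the data had been seen. Permutation tests were two-sided. Those of CPM between groups enumerated every split. For correlations heifers were permuted within outcome groups, exactly below 10 heifers and otherwise with 100000 resamples. At station B the 3 libraries that stood apart formed a separate cluster, so correlations were computed in the other 9. Scripts were tested on simulated data. R 4.3.3, Python 3.11.15, numpy 2.4.6, scipy 1.17.1 and pandas 2.3.3 were used.

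The members, lists and tests were chosen with earlier results of these data known. Named genes were the 4 members, list members tied to an identifier and the genes with the highest r. Gene symbols came from the study, since the RefSeq table (ARS-UCD2.0) held no Ensembl identifier for any of its 37063 genes. For the same reason no coordinates are given. Alternatives were TMM factors, each test alone, no filter or more than 1 CPM in every library, a covariate (first principal component), each heifer left out, classes of libraries, other prior counts and scaling. The top-heavy class of station A and DESeq2 alone for counts of genes were added after the data had been seen.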

Additional observations from a re-analysis of the deposited data

Results flagged for a closer look

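TPPP in AI-pregnant heifer 3 of station B had 10.1 CPM, and the gap to the next heifer was 0.988 of the whole range of the group, in which the other 5 heifers had 0 to 0.118 CPM. It was picked out as a sample far from the others of its group. The library is 1 of the 3 of station B that stood apart. Of 16 groups examined, 4 genes in 4 groups, this was the only one. Chance picks out about 1 in 20 groups, but that rate need not hold where the other 5 heifers had 1 read pair or none. TPPP is also 1 of 1043 genes above 1 CPM in exactly these 3 libraries of station B, so the gap is not particular to it.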

How the results depend on the processing

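TTLL1, MNS1 and TPPP at station A and SAXO2 at station B kept their direction under every alternative run, and with a heifer left out they ranged from 1.16 to 1.51, 1.10 to 1.46, -1.99 to -1.34 and -1.05 to -0.85 (log2 fold change). Under other settings 27 of 28 values moved by less than 1 SD between heifers, all but TTLL1 in the even libraries, 0.48. How often the nominal limit that chose the genes was met is a description that supports nothing. With a heifer left out it was met in 11 of 11 fits for TTLL1 and MNS1 and 4 of 11 for TPPP. SAXO2 met it in 5 of 12, but not without a filter. Other settings met it in 2 of 5 for TTLL1, 2 of 4 each for MNS1 and TPPP and 1 of 3 for SAXO2. In the even or alike libraries none of the 4 met it. In the contrasts that had no part in the choice, no alternative outside the heifers left out brought a gene past the limit, though the first principal component as covariate took TPPP at station B from -0.46 to -1.42 (standard error 0.62, adjusted p = 1). Signs turned for SAXO2 at station A in the even libraries (-0.45), for TTLL1 at station B in the 9 alike libraries (-0.39), and for MNS1 at station B in the 9 (0.25) and with that covariate (0.03). With a heifer left out SAXO2 ranged from -0.14 to 0.19, TTLL1 at station B from 0.09 to 0.57, MNS1 from -0.32 to 0.14 and TPPP from -1.29 to 4.40. Without AI-pregnant heifer 3, TPPP at station B had an edgeR P of 0.0095 (adjusted p = 0.0814, DESeq2 not run). That setting called 1375 of 10832 retained genes. The cause of these shifts was not tested.

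The number of genes called at station A, 18, became 0 with the quasi-likelihood test, 2 with DESeq2 and adjusted p, 37 with DESeq2 alone, 39 without a filter, 124 with the covariate, 95 in the even and 43 in the top-heavy libraries, and 12 to 45 with a heifer left out (28, 30 and 45 without NB-pregnant heifers 1, 2 and 3, 41 without AI-pregnant heifer 4). At station B the 6 became 0 with the quasi-likelihood test and with adjusted DESeq2, 16 with DESeq2 alone, 28 with the covariate, 12 in the 9 alike libraries, and 3 to 1375 with a heifer left out, 1375 without AI-pregnant heifer 3, 16 and 10 without non-pregnant heifers 2 and 6, and 3 without AI-pregnant heifer 1, 5 or 6 or non-pregnant heifer 4. TMM factors moved the median over all genes at station A, as log2 fold change, from -0.12 to 0.01 and no member's sign, and 15 of 26 calls were then higher in NB-pregnant heifers, against 8 of 18.

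Over all heifers the station difference ranged, with a heifer left out, from -2.39 to -2.04 for TTLL1, 0.99 to 1.36 for MNS1, -3.28 to -0.78 for TPPP and 0.49 to 0.77 for SAXO2, and among AI-pregnant heifers from -1.73 to -1.31, 1.84 to 2.12, -6.32 to -1.31 and 1.13 to 1.46. In the even and alike libraries TPPP was at -5.63 over all heifers and -6.51 among AI-pregnant heifers, fitted values that rest on 4 read pairs and on 2 at station B. For correlations, TTLL1 with TPPP at station A passed the limit with TMM scaling (-0.81). Signs turned in the even libraries for MNS1 with TPPP (0.87), TPPP with SAXO2 (-0.52) and TTLL1 with MNS1 (-0.61). Without the 2 farthest heifers they turned for MNS1 with TPPP (0.02) and TTLL1 with MNS1 (-0.12) at station A, and for MNS1 with SAXO2 (-0.01), TTLL1 with MNS1 (-0.42) and TTLL1 with SAXO2 (-0.02) at station B.

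SAXO2 rests on 1 to 18 read pairs per library at station A and 8 to 23 at station B, MNS1 at station A on 9 to 65, and TPPP on 3 in 3 libraries of station A and on 1 or none in 9 of station B. The filter of over 1 CPM in every library left only TTLL1 at station A and TTLL1 and MNS1 at station B. The design holds no pairs.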
